A study of Homo sapiens with 82 samples.

Results

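A set of 906 regions of the HT29 genome had peaks of acetylated lysine 27 of histone H3 (H3K27ac) after 48 h of GW3965 and after 48 h of rosiglitazone, and in neither library of DMSO-treated cells. HT29 is a colorectal adenocarcinoma line, GW3965 is an agonist of the liver X receptors LXRA (NR1H3) and LXRB (NR1H2), and rosiglitazone is an agonist of PPARG. The regions were chosen by the H3K27ac peaks themselves. Peaks of Rep1 and Rep2 sharing 1 bp or more were merged into sites, and the 906 are the 48 h GW3965 sites that met a 48 h rosiglitazone site and no peak of either DMSO replicate. They make up 4.02% of the 22527 H3K27ac sites of 48 h GW3965 and 29.9% of the 3029 such sites that met no DMSO peak. They met 904 of the 23192 sites of 48 h rosiglitazone. H3K27ac in these 6 libraries therefore describes the choice and is not a result.

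All cells were HT29 given DMSO or a drug at 10 μM, and each ChIP-seq group had 2 replicates. H3K27ac and RNA polymerase II (RNAP2) were profiled in DMSO and with either drug at 24 and 48 h, LXRB and LXRA after 2 and 48 h of GW3965, PPARG after 2 and 48 h of rosiglitazone, and JunD in DMSO only. LXRA was captured through a FLAG tag, in HT29 cells transfected with a tagged LXRA plasmid and selected with G418, so these libraries report an introduced protein. No receptor was profiled without its agonist or with the other drug, and no hour is given for the DMSO libraries of ChIP-seq. The 32 RNA-seq libraries were of DMSO, GW3965, rosiglitazone and T0901317, another agonist of the liver X receptors, each at 24 and 48 h. The RNA-seq libraries had the epithelial identity of the line: all 10 colon epithelial markers had a median of at least 1 CPM (a count scaled to a total of 1000000) over 32 libraries and summed to between 15697 and 20729 CPM, whereas 9 measured markers of other cells summed to between 11.2 and 25.4 CPM, with CD68 and COL1A1 alone above 1.

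Some libraries shared more peaks with a library of another group than with their own replicate. The replicates of 24 h GW3965 H3K27ac shared 74.3% of their peaks, averaged over both directions, less than the 87.4% that Rep1 shared with DMSO Rep2 and the 81.6% that Rep2 shared with 48 h GW3965 Rep2. Rep1 of 48 h GW3965 shared 80.6% with its own replicate, 82.5% with DMSO Rep2 and 83.0% with 24 h GW3965 Rep1. The 4 rosiglitazone libraries shared between 85.3% and 88.5%. Of the RNAP2 libraries, the replicates of 24 h GW3965 shared 72.6%, while Rep2 shared 78.5% with 48 h GW3965 Rep2. Those of 48 h rosiglitazone shared 72.8%, while Rep2 shared 79.0% with DMSO Rep1. Whether any library carries a wrong label was not tested. Nothing in the labels says whether replicates came from separate cultures, so the spread between them may be technical.

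H3K27ac marks active promoters and enhancers, and a site that gains it is usually one where regulatory DNA has become active. LXRA, LXRB and PPARG are nuclear receptors that bind DNA as partners of the retinoid X receptors, recruit coactivators with acetyltransferase activity once a ligand is bound, and control genes of sterol and fatty acid handling. JunD is a subunit of AP1, a factor of open enhancers, and RNAP2 is the enzyme that transcribes genes and is also found at active enhancers.

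The 906 sites were narrower and scored lower than sites with a DMSO peak, and were wider than the sites gained with 1 drug only. The first follows in part from choosing sites without a DMSO peak. For the second, the sites gained with 1 drug only also lacked a DMSO peak. Those classes differ from the 906 by the rule for the other drug, and its part in the widths was not tested. Both traits are given as a description. Their median width was 1745 bp (quartiles 1314 and 2229 bp), against 2468 bp for all GW3965 48 h sites and 2735 bp for those with a rosiglitazone site and a DMSO peak. The MACS score, minus 10 times the log10 of a peak's p, had a median at the sites of 202 in GW3965 Rep1, 213 in GW3965 Rep2, 285 in rosiglitazone Rep1 and 204 in rosiglitazone Rep2. At the 17241 sites that met a rosiglitazone site and a DMSO peak, the same medians were 718, 356, 649 and 656. At the 1546 sites gained with GW3965 only, which had no rosiglitazone 48 h peak in either library, the GW3965 medians were 181 and 160. At the 1083 gained with rosiglitazone only, which had no GW3965 48 h peak in either library, the rosiglitazone medians were 221 and 164. The files list no peak under a score of 100, so a site without a DMSO peak could still hold acetylation under that limit, and read depth at the sites was not analysed here. Of the 884 sites with a peak of all 4 drug libraries inside the span, 272 had a lowest score under 120.

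Sites just inside and just outside the rule had scores within a few units of the same limit. The weakest sites by the lowest of the 4 drug scores were chr15:39463595-39465462, at 100 in GW3965 Rep2, chrX:109330261-109331904, at 100.1 in rosiglitazone Rep1, and chr12:15084410-15085361, at 100.1 in GW3965 Rep2. Those kept out by the weakest DMSO peak were chr1:59604252-59606117, with a DMSO score of 100.01 in Rep2, chr4:91095340-91096877, at 100.1 in Rep2, and chr22:47732722-47733696, at 100.1 in Rep1. The chr4 region had scores of 206 and 246 with GW3965 and 1204 and 1057 with rosiglitazone, above the medians of the 906 in all 4 libraries. In all, 326 of the 17241 sites were kept out by DMSO peaks that scored under 120. The number of sites was sensitive to single libraries, since leaving one out drops a condition: it was 2290 without DMSO Rep2, 1665 without GW3965 48 h Rep1, 1419 without GW3965 48 h Rep2 and 1397 without rosiglitazone 48 h Rep2. With an equal number of peaks kept in each H3K27ac library it was 443.

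Most of the sites lay near chromatin that was already acetylated, and apart from each other. The median distance to the nearest DMSO H3K27ac peak was 9551 bp, with 123 sites (13.6%) within 1000 bp and 594 (65.6%) within 20000 bp. The sites gained with GW3965 only lay a median of 13645 bp away, and those gained with rosiglitazone only 18002 bp away. Only 108 of the 906 sites (11.9%) had another of them within 20000 bp. Joined over gaps of that length, the sites fell into 798 single sites, 51 pairs and 2 runs of 3, chr1:214600745-214621320 and chr10:89991643-90015374, both picked after looking at the values. The chr10 run had a PPARG site at 2 h and at 48 h and a 24 h rosiglitazone H3K27ac site at all 3 members. The chr1 run had RNAP2 at all 3 members after 48 h of GW3965 and after 24 h of rosiglitazone. In DMSO and after 48 h of rosiglitazone RNAP2 was at 2 of its members, and after 24 h of GW3965 at 1. By chromosome, the sites ran from 0.833 per 100 GW3965 sites on chromosome 19 to 5.79 per 100 on chromosome 18. On chromosome 19, 7 of 840 sites belonged to the set, and on chromosome 18, 25 of 432.

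The strongest sites, ranked by the lowest of the 4 drug scores, differed widely in what else they held. At chr18:55951810-55955755, a span of 3946 bp, H3K27ac scored 767 and 1500.2 after 48 h of GW3965 and 771 and 580.3 after 48 h of rosiglitazone. It had LXRA scores of 1523 and 828 at 2 h and of 374 and 430.0 at 48 h, PPARG only at 2 h (196 and 190.1), and no LXRB or JunD peak in any library. No RNAP2 peak was listed there in DMSO. At chr6:144064321-144068063, H3K27ac scored 1078 and 841 with GW3965 and 856 and 571 with rosiglitazone, with PPARG at 1955 and 1372 at 2 h and at 1167 and 913 at 48 h. LXRA there was at 1360 and 655 at 2 h and at 148 and 474 at 48 h.

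Of the other strong sites, chr6:113952027-113954786 had 24 h H3K27ac in all 4 libraries (317, 223, 643 and 515 in the order GW3965 Rep1 and Rep2, rosiglitazone Rep1 and Rep2) and PPARG in all 4 of its libraries (599 to 1713). At chr1:95548546-95551548 LXRB scored 319 and 311 at 2 h and 668 and 693 at 48 h, and LXRA reached 3100 in Rep1 at 2 h. PPARG scored 497 and 131 there at 2 h, and at 48 h was listed in Rep1 only, at 129. At chr17:57372939-57375278 PPARG stood at 3100 and 1021 at 2 h and at 3056 and 1492 at 48 h, with a single LXRB peak of 120.4 in 48 h Rep2. Scores of different antibodies do not share a scale, so no factor is ranked against another.

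The 24 h state of the sites was asked for next, since it places the gain in time and uses libraries outside the rule. By 24 h of rosiglitazone, H3K27ac was present at most of the sites, whereas with GW3965 the 2 libraries differed. Peaks of rosiglitazone covered 78.5% of the sites in Rep1 and 82.8% in Rep2, and 664 sites (73.3%, Wilson 95% interval 70.3% to 76.1%) met a site of both. The background over all 22527 GW3965 48 h sites was 80.1%. GW3965 peaks covered 47.5% in Rep1 and 71.4% in Rep2, and 332 sites (36.6%, 33.6% to 39.8%) met a site of both, against a background of 75.9%. Rep1 is the library that shared most peaks with DMSO Rep2, and without it the share is the 71.4% of Rep2. The rosiglitazone libraries were both higher than the GW3965 libraries, but 2 against 2 libraries cannot give an exact two-sided permutation p under 0.333, the value found.

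A 24 h peak was listed in all 4 libraries at 236 of the 906 sites, in 3 at 382, in 2 at 183, in 1 at 82 and in none at 23. Replicated 24 h sites of both drugs were present at 258 sites (28.5%), of rosiglitazone alone at 406 (44.8%), of GW3965 alone at 74 (8.17%) and of neither at 168 (18.5%). Acetylation was therefore listed at 48 h alone at 2.54% of the sites. Such combinations of 24 h libraries are not given here over all GW3965 48 h sites.

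**Figure D1:**
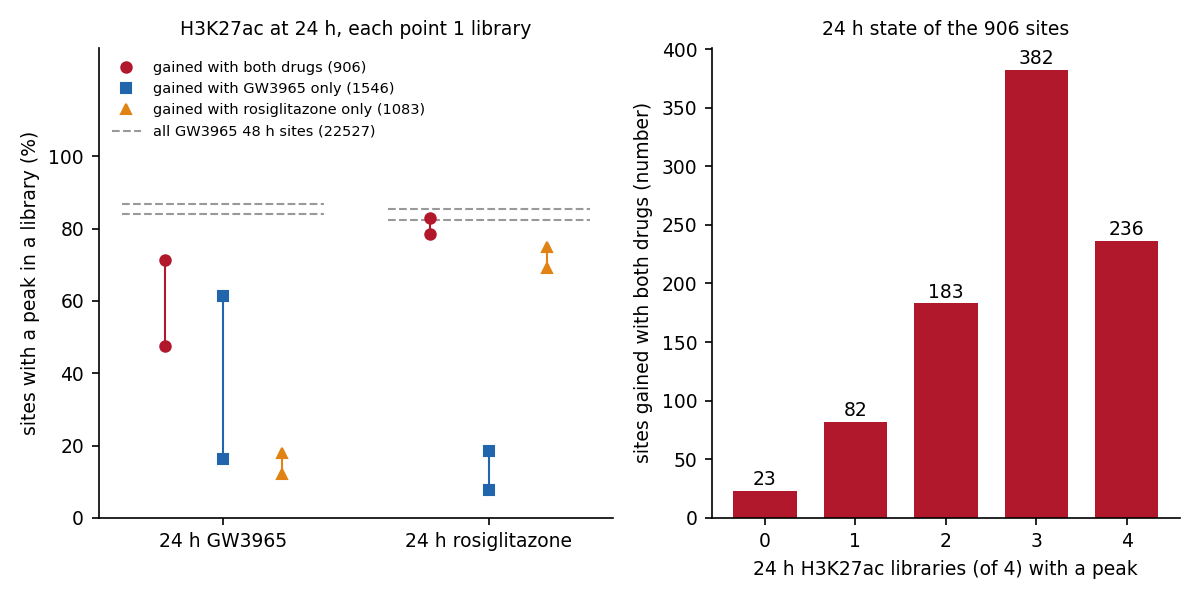
The left panel plots the percentage of sites with an H3K27ac peak in each 24 h library (y axis) for GW3965 and rosiglitazone, with a point per library, a line joining replicates, and dashed lines for all GW3965 48 h sites in each library. The right panel gives the number of the 906 sites by how many of the 4 libraries of 24 h held a peak. Rosiglitazone libraries cover 78.5% and 82.8% of the sites gained with both drugs, GW3965 libraries 47.5% and 71.4%, and 23 sites have no peak in any.

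The sites gained with 1 drug only differed from the 906 in their 24 h state. Those of GW3965 only had 24 h GW3965 peaks at 16.3% in Rep1 and 61.3% in Rep2 and 24 h rosiglitazone peaks at 7.57% and 18.5%. Those of rosiglitazone only had 24 h rosiglitazone peaks at 74.8% and 69.1% and 24 h GW3965 peaks at 17.8% and 12.004%. The difference between Rep1 and Rep2 of 24 h GW3965 was thus seen at both classes of GW3965 sites. Replicated 24 h GW3965 sites were at 12.03% of the sites gained with GW3965 only and at 2.12% of those gained with rosiglitazone only. At sites with a rosiglitazone site and a DMSO peak the share was 88.7%. The part of the difference between replicates in the replicated share of 36.6% at the 906 sites was not tested.

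Receptor binding was common at the 906 sites, and PPARG stood furthest above the background. PPARG peaks at 2 h covered 59.1% of them in Rep1 and 50.3% in Rep2, and 428 sites (47.2%, interval 44.0% to 50.5%) had a replicated PPARG site, against a background of 28.5%. At 48 h the libraries covered 52.8% and 36.3%, and 324 sites (35.8%, 32.7% to 38.9%) had a replicated one, against 18.3%. In all 4 PPARG libraries the share was higher at the 906 sites than at the 17241 sites with a DMSO peak, by 14.2 to 18.5 percentage points. Compared after the values were seen, the mean difference was 16.4 points, with an exact two-sided sign-flip permutation p of 0.125, the smallest that 4 libraries can give. The intervals cover counting error over sites only.

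LXRB was found less often. At 2 h it covered 19.4% of the sites in Rep1 and 11.4% in Rep2, and 89 sites (9.82%, 8.05% to 11.9%) had a replicated LXRB site, against a background of 12.6%. At 48 h it covered 26.7% and 29.8%, and 202 sites (22.3%, 19.7% to 25.1%) had one, against 26.0%. LXRB was thus no more frequent here than over all GW3965 sites.

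LXRA, the tagged receptor, lay between these. Its 2 h libraries covered 66.8% and 53.9% of the sites, and 477 sites (52.6%, 49.4% to 55.9%) had a replicated LXRA site, against a background of 42.2%. The 48 h libraries covered 43.5% and 59.5%, and 389 sites (42.9%, 39.7% to 46.2%) had one, against 39.7%. The replicates of LXRA lay further apart at either time than the replicated share lay from its background. They also lay apart over all GW3965 48 h sites. There Rep1 and Rep2 covered 61.0% and 42.9% at 2 h, and 40.7% and 58.6% at 48 h. Compared library by library, each LXRA share was higher at the sites gained with both drugs, with the smaller gaps at 48 h. This difference was not tested.

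**Figure D2:**
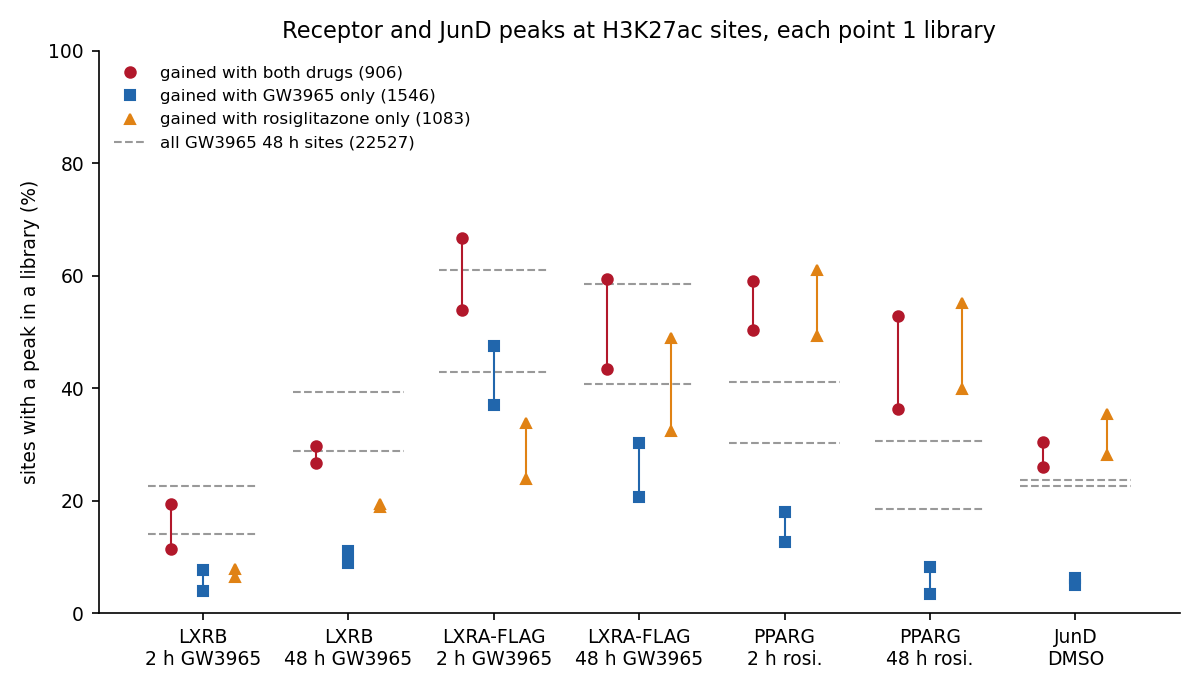
The y axis is the percentage of H3K27ac sites with a peak in a library of LXRB, LXRA-FLAG, PPARG or JunD (x axis), for the 906 sites gained with both drugs, 1546 gained with GW3965 only and 1083 gained with rosiglitazone only. Each point is 1 library, a line joins the 2 replicates, and dashed lines give each library's share over all 22527 GW3965 48 h sites. The sites gained with both drugs lie above those of GW3965 only in all 14 libraries and close to those of rosiglitazone only for PPARG and JunD.

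The classes gained with 1 drug separate the receptors further. Sites gained with GW3965 only had a replicated PPARG site at 10.4% at 2 h and 3.23% at 48 h, LXRB at 3.49% and 7.18%, and LXRA at 35.1% and 19.6%. In all 14 libraries of receptors and JunD the 906 sites had the higher share, by 7.49 to 44.6 percentage points. Sites gained with rosiglitazone only had PPARG at 47.6% and 39.7%, LXRB at 4.43% and 14.6%, and LXRA at 23.5% and 31.9%. Against these, the 906 sites had the higher share in 4 of 4 LXRB libraries (4.91 to 11.5 points) and in 4 of 4 LXRA libraries (10.6 to 33.0 points), but in only 1 of 4 PPARG libraries, where differences ran from -3.58 to 1.02 points. Widths differed between classes (medians of 1499 bp for GW3965 only and 1526 bp for rosiglitazone only). Counted in windows of 500 bp to each side of the centre, the LXRB share at 48 h was 22.1% at the 906 sites, 7.05% with GW3965 only and 13.7% with rosiglitazone only, and the PPARG share at 48 h was 35.2%, 3.04% and 39.6%.

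As over all GW3965 48 h sites, those bound at 48 h had mostly been bound by the same receptor at 2 h for PPARG, and less so for LXRB. Of the 324 sites with PPARG at 48 h, 312 (96.3%) had it at 2 h, and 116 sites had PPARG at 2 h and not at 48 h. For LXRB, 74 sites had it at both times, 128 at 48 h only and 15 at 2 h only. LXRA was present at both times at 330 sites, at 2 h only at 147 and at 48 h only at 59. Over all GW3965 48 h sites, 3979 of the 4122 sites with PPARG at 48 h had it at 2 h. For LXRB this held at 2542 of 5860 sites. Of sites with a receptor at 2 h, 72.9% had it at 48 h for PPARG, 83.1% for LXRB and 69.2% for LXRA. Over all GW3965 48 h sites these shares were 61.9%, 89.3% and 73.7%. These directions follow the number of peaks per library, which was 24039 and 15804 for PPARG at 2 h and 15378 and 8933 at 48 h, and 7583 and 4555 for LXRB at 2 h and 11100 and 14788 at 48 h. With the same number of peaks kept in each library of a receptor, an alternative chosen after the values were seen, PPARG was at 30.5% of the 906 sites at 2 h and 32.8% at 48 h, LXRB at 7.51% and 8.17%, and LXRA at 45.8% and 39.2%. The order of the 2 times was thus turned for PPARG, nearly level for LXRB and kept for LXRA.

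At 48 h, 518 of the 906 sites (57.2%) held at least 1 receptor, and 128 (14.1%) held all 3. The same 2 shares over all GW3965 48 h sites are not given here. LXRB and PPARG shared 133 sites (14.7%), PPARG without LXRB was at 191, LXRB without PPARG at 69, and neither at 513. Over all GW3965 48 h sites LXRB and PPARG shared 11.5%, over those with a DMSO peak 13.8%, over those gained with rosiglitazone only 10.4% and over those gained with GW3965 only 1.03%. LXRA was at 191 of the 202 LXRB sites (94.6%), against 83.8% of the LXRB sites among all GW3965 sites. Counting 2 and 48 h together, 639 sites (70.5%) had a replicated receptor site and 267 (29.5%) had none, of which 150 sites (16.6% of the 906) had no receptor peak in any of the 12 libraries. A replicated site was present at 41.1% of the sites gained with GW3965 only, at 61.4% of those gained with rosiglitazone only and at 60.8% of those with a DMSO peak. Over all GW3965 48 h sites the share was 58.1%.

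JunD, measured in DMSO only, marked a minority of the sites together with the receptors. Its peaks covered 25.9% of the 906 sites in Rep1 and 30.5% in Rep2, and 215 sites (23.7%, 21.1% to 26.6%) had a replicated JunD site, against a background of 19.6%. The share was 4.204% at sites gained with GW3965 only and 25.7% at those gained with rosiglitazone only. All 215 JunD sites except 13 had a receptor site at 2 or 48 h, a count not given here over all GW3965 48 h sites. Among sites with JunD, 57.2% (50.5% to 63.6%) had LXRB at 48 h, 79.5% LXRA and 54.4% PPARG. Without JunD these shares were 11.4% (9.27% to 14.0%), 31.5% and 30.0%. Over all GW3965 48 h sites, LXRB was at 69.5% of sites with JunD and 15.4% of sites without, and LXRA at 83.7% and 29.0%. For PPARG the shares over all sites were 48.9% and 10.8%, so that without JunD it was more frequent at the 906 sites. A like PPARG share without JunD, 33.7%, was found at sites gained with rosiglitazone only.

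**Figure D3:**
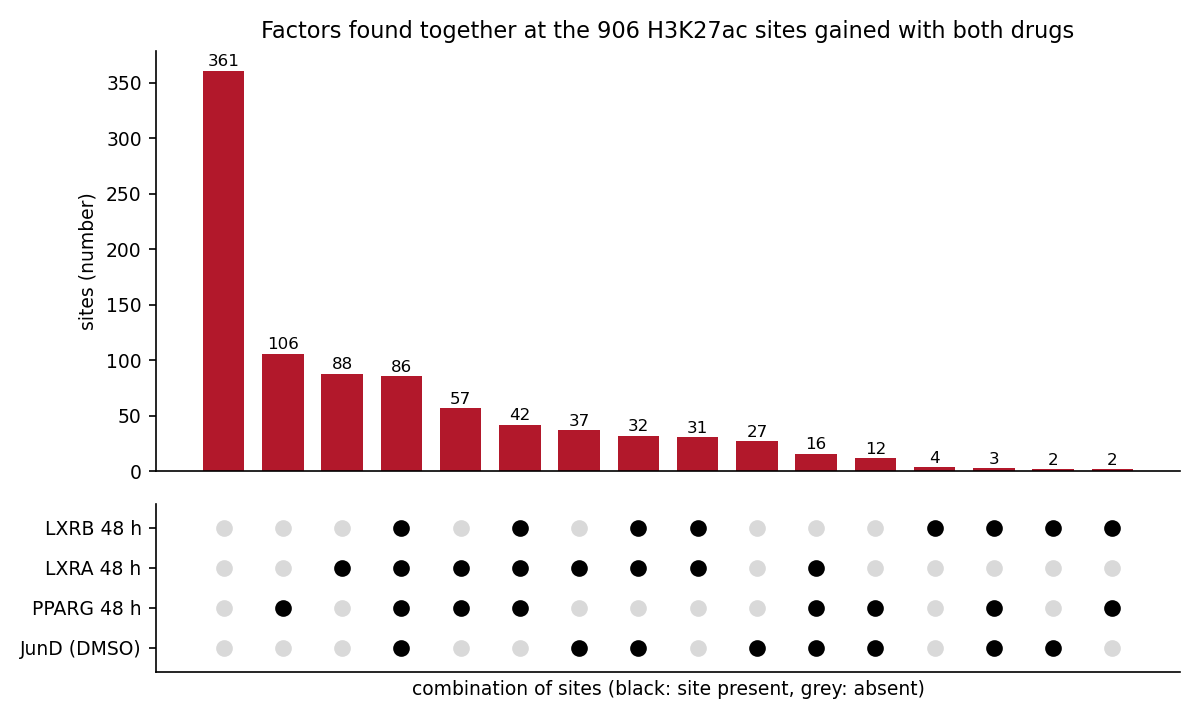
Bars give the number of the 906 sites (y axis) with each combination of replicated LXRB, LXRA and PPARG sites at 48 h and JunD sites in DMSO, and black dots below a bar show which were present. The largest class, 361 sites, had none of them, 106 had PPARG alone, 88 LXRA alone and 86 all.

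Where factors shared a site, their centres lay close together. Centres of LXRB and PPARG sites were a median of 57.0 bp apart at the 133 shared sites (quartiles 27 and 106 bp), and 93 were within 100 bp. LXRB and LXRA centres were 39.5 bp apart at 191 sites, LXRB and JunD centres 42.0 bp at 123 and PPARG and JunD centres 52.5 bp at 117. The distance from the LXRB centre to the middle of the H3K27ac site was larger, with a median of 189 bp, and that from the PPARG centre was 192 bp. LXRB and PPARG were measured in different cells under different drugs, so a shared centre does not show that they were bound together. At sites with a DMSO peak, which were wider, the medians were 74.5 bp for LXRB to PPARG and 59.5 bp for LXRB to LXRA. Both LXRB to JunD and PPARG to JunD had a median of 81 bp there. The H3K27ac middle lay a median of 347.5 bp from LXRB and 348 bp from PPARG. Factor centres closer to each other than to the H3K27ac middle were thus also seen at sites with a DMSO peak.

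**Figure D4:**
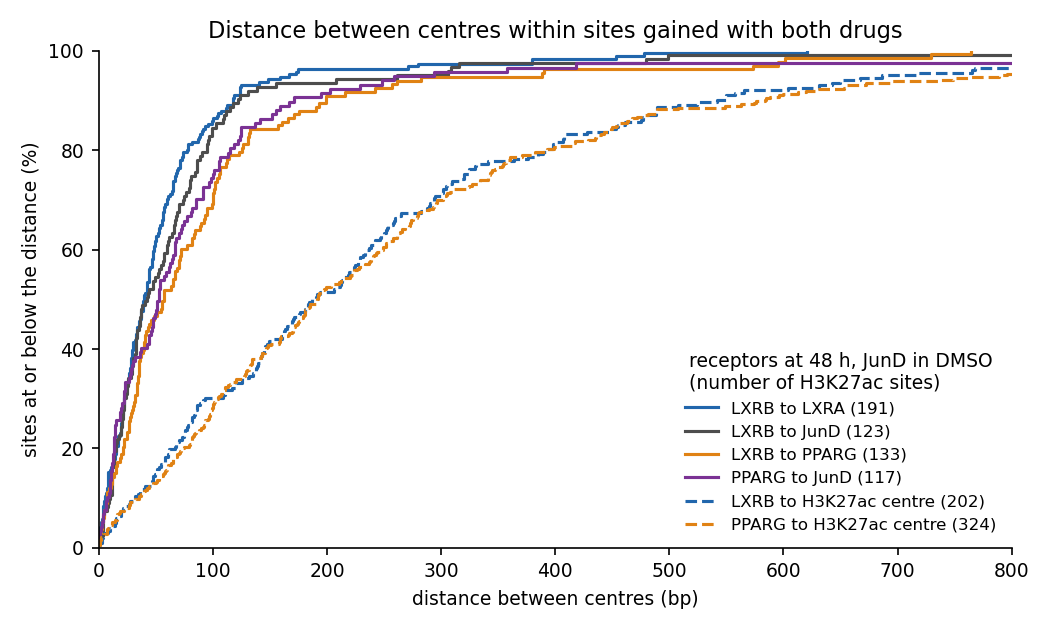
Cumulative percentage of sites (y axis) against the distance in bp between the centres of factor sites within the sites gained with both drugs (solid lines), and from a factor's centre to the middle of the H3K27ac site (dashed lines). Receptors are at 48 h and JunD in DMSO, with the number of H3K27ac sites in brackets. Factor centres lie a median of 39.5 to 57.0 bp apart, the H3K27ac middle 189 to 192 bp away.

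The sites bound most strongly by both receptors were chosen by the lowest of the LXRB and PPARG scores at 48 h. At chr1:210546438-210548225, LXRB scored 977 and 1069.7, PPARG 2596 and 1303, and JunD 2896 and 2854, the highest of the 906 sites by the lower of its 2 JunD scores. All 10 RNAP2 libraries, DMSO included, were at 3100 there, and H3K27ac at 48 h was 107 and 416 with GW3965. At chr9:2570560-2572065 LXRB scored 915 and 737 and PPARG 3100 and 2628, with RNAP2 between 735 and 1312 in all 10 libraries. At chr2:81884797-81886310 LXRB scored 526 and 620.5 and PPARG 1244 and 627. RNAP2 there was 797 and 660 in DMSO, 469 and 702 at 24 h and 860 and 432 at 48 h of GW3965, and 1949 and 1699 at 24 h and 1599 and 1141 at 48 h of rosiglitazone. The 4 rosiglitazone libraries were higher than all 6 others at that site.

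By the same measure, the next JunD sites were chr2:151326659-151327724 (3100 and 2058) and chr5:172191392-172194073 (1493 and 1451). The first had H3K27ac scores at 48 h of only 102 to 131 in the 4 drug libraries, but at 24 h of 2779 in GW3965 Rep2 and of 1959 and 2509 with rosiglitazone, and lay 596 bp from a DMSO peak. The second lay 1487 bp from a DMSO peak and had RNAP2 in all 10 libraries. These sites therefore held JunD and RNAP2 without an H3K27ac peak in DMSO.

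RNAP2 peaks were listed at many of the sites in DMSO, where no H3K27ac peak was. The DMSO libraries covered 49.4% of the 906 sites in Rep1 and 48.2% in Rep2. A peak in at least 1 of these libraries was listed at 502 sites (55.4%), and 386 (42.6%) had a replicated RNAP2 site, against a background of 68.0%. With GW3965 the libraries covered 55.3% and 36.6% at 24 h and 40.0% and 42.7% at 48 h. With rosiglitazone they covered 54.3% and 66.0% at 24 h and 41.9% and 67.8% at 48 h. Drug and DMSO libraries overlapped, and replicates of 48 h rosiglitazone lay furthest apart.

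Taken over the 8 drug libraries, the RNAP2 share was 50.6%, against 48.8% in the 2 DMSO libraries. This difference of 1.74 percentage points had an exact two-sided permutation p of 0.933 over 45 splits, of which the smallest possible p is 0.0222. By drug, as compared after the values were seen, the 4 GW3965 libraries lay 5.19 points below DMSO (exact permutation p = 0.467) and the 4 rosiglitazone libraries 8.66 points above it (exact permutation p = 0.400). The difference between rosiglitazone and GW3965, 57.5% against 43.7%, had an exact two-sided permutation p of 0.143. With 15 splits for each drug against DMSO, the smallest possible p was 0.0667. The 2 drugs lay on opposite sides of DMSO, so the difference over 8 libraries averages over opposite signs. By drug and time, both 48 h GW3965 libraries lay below both DMSO libraries, by 7.51 points in the mean, and both 24 h rosiglitazone libraries lay above them, by 11.3 points. Each had an exact permutation p of 0.333, the smallest that 2 against 2 libraries can give. At 24 h of GW3965 and 48 h of rosiglitazone 1 library lay on either side of DMSO, with mean differences of -2.87 and 6.02 points.

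Replicated RNAP2 sites, which need a peak in both libraries, gave another order, with 48 h rosiglitazone below DMSO and 24 h GW3965 below 48 h GW3965. They were present at 298 sites (32.9%) at 24 h and 323 (35.7%) at 48 h of GW3965, and at 467 (51.5%) at 24 h and 373 (41.2%) at 48 h of rosiglitazone. The backgrounds were 56.4%, 65.1%, 58.7% and 56.3%, so each share was below that of all GW3965 sites. RNAP2 sites were found in all 5 groups at 185 sites (20.4%) and in none at 331 (36.5%). Sites with RNAP2 at 48 h of both drugs and no DMSO peak numbered 10. At 24 h, 65 sites had RNAP2 with rosiglitazone and no DMSO peak, and 15 with GW3965. At 48 h these were 30 with rosiglitazone and 26 with GW3965. In the other direction, 69 sites had a DMSO site and no peak at 48 h of GW3965, and 6 had no peak at 48 h of rosiglitazone. No peak means none in either library. At 48 h of rosiglitazone Rep1 covered 41.9% of the 906 sites and Rep2 67.8%, while the GW3965 libraries covered 40.0% and 42.7%. The part of that 1 library in the 69 and 6 was not tested. None of these counts is given here over all GW3965 48 h sites.

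**Figure D5:**
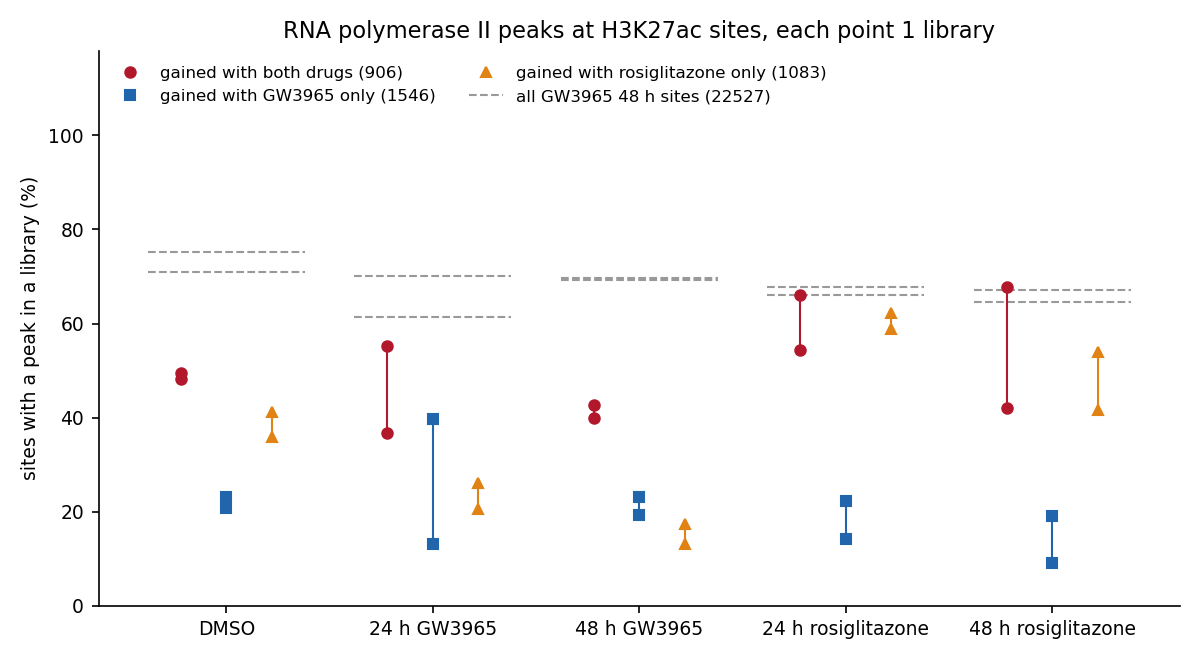
The y axis is the percentage of H3K27ac sites with an RNAP2 peak in a library, for the 5 groups of libraries (x axis) and the same classes of sites, with a point per library, a line joining replicates and dashed lines for all GW3965 48 h sites. At the sites gained with both drugs, DMSO libraries stand at 49.4% and 48.2%, inside the range of the drug libraries (36.6% to 67.8%).

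RNAP2 was more frequent at the 906 sites than at sites gained with GW3965 only. Over the same 10 libraries the mean share was 50.2% at the 906 sites and 20.4% at sites gained with GW3965 only, higher in 10 of 10 libraries, and the difference of 29.9 points had an exact two-sided sign-flip permutation p of 0.00195, the smallest that 1024 sign patterns can give. Against sites gained with rosiglitazone only, at 37.1%, the difference was 13.1 points, higher in 9 of 10 libraries, with an exact permutation p of 0.00977. This second difference rested on 1 library of the rule. Without GW3965 48 h Rep2 it was 0.322 points (exact permutation p = 0.920), whereas the first was 23.0 points or more under every single library left out. Each p is over libraries that scored the same fixed lists of sites. It does not cover how the classes were chosen by H3K27ac peaks or their difference in width. By group, the 906 sites and those of rosiglitazone only had mean RNAP2 shares of 48.8% and 38.6% in DMSO, 41.3% and 15.3% at 48 h of GW3965, and 60.2% and 60.6% at 24 h of rosiglitazone. The 24 h GW3965 RNAP2 libraries disagreed at sites gained with GW3965 only, with 39.8% in Rep1 and 13.2% in Rep2.

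RNAP2 was more frequent at sites with LXRB, LXRA, PPARG or JunD than at sites without that factor. In DMSO, RNAP2 was at 173 of the 202 sites with LXRB at 48 h (85.6%, 80.1% to 89.8%) and at 213 of the 704 without (30.3%, 26.98% to 33.7%). For JunD the shares were 82.3% with and 30.2% without, and for PPARG at 48 h they were 57.7% and 34.2%. For LXRA at 48 h they were 72.2% and 20.3%. After 48 h of rosiglitazone, RNAP2 was at 84.7% of sites with LXRB and 28.7% of those without. Over all GW3965 48 h sites, RNAP2 in DMSO was at 96.1% of sites with LXRB and 58.2% without. For JunD these shares were 97.0% and 61.0%, and for PPARG at 48 h 86.8% and 63.8%. Wider sites also held more of each factor. Among the 453 sites over the median width, 28.9% had LXRB at 48 h and 47.9% RNAP2 in DMSO, against 15.7% and 37.3% of the 453 others, and the part of width in these splits was not tested.

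The 24 h H3K27ac state differed little by receptor, most for rosiglitazone. With PPARG at 2 h, 79.9% of sites (75.9% to 83.4%) had a 24 h rosiglitazone site, and without it 67.4% (63.0% to 71.4%). Over all GW3965 48 h sites these shares were 89.7% and 76.3%, and at sites gained with rosiglitazone only 68.0% and 54.7%, a gap of like size. For 24 h GW3965 sites the shares were 35.98% with and 37.2% without PPARG at 2 h, 39.6% with and 35.8% without LXRB at 48 h, and 37.1% with and 36.1% without LXRA at 2 h. JunD sites had a 24 h rosiglitazone site at 83.3%, and the others at 70.2%, against 92.6% and 77.0% over all GW3965 sites. All of these are shares over sites, which are not replicates of a condition, and carry no test.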

How the data were processed

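ChIP-seq peaks of 34 libraries and counts of 32 RNA-seq libraries were used. For the peaks, the authors aligned single-end reads and ran MACS on every replicate with an input control, and the deposited score is minus 10 times the log10 of a peak's p. The processing notes name Bowtie, MACS, TopHat, Cufflinks and hg19, with no versions, and coordinates here are those of the files. The lowest deposited score was 100, and read depth per library is unknown, so precision was judged from replicates and from Wilson 95% intervals. For RNA-seq, the authors deposited whole-number counts per gene (total counts 21044798 to 51332656), used here only as CPM of marker genes.

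Sites were built in Python 3.11.15 with numpy 2.4.6 and scipy 1.17.1, and drawn with matplotlib 3.10.9. A target was present where its merged site of both replicates overlapped by at least 1 bp. Shares per library were compared by exact two-sided permutation of libraries, or by sign flips over libraries between classes. Overlap and tests were checked on simulated data. The named sites were the 5 with the highest lowest score in the 4 libraries of 48 h H3K27ac, the 3 highest by LXRB and PPARG at 48 h, the 3 highest by JunD, and the 3 just inside and the 3 just outside the rule. Sites, classes and lists were chosen with earlier results of these data known. Alternatives changed the overlap, score limit, number of peaks, distance to DMSO peaks, window, replicate rule and libraries. H3K36me3 and input libraries, genes near the sites, their RNA and their sequences were not analysed here, since no hg19 annotation or sequence was used.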

Additional observations from a re-analysis of the deposited data

How the results depend on the processing

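Peak presence depends on depth and on a score limit of 100, so a missing peak is no proof of missing signal. Counting a target peak in either replicate raised the shares to 85.7% and 89.0% for 24 h H3K27ac of GW3965 and rosiglitazone, 21.0% and 34.2% for LXRB at 2 and 48 h, 68.4% and 60.4% for LXRA, 62.4% and 53.4% for PPARG, and 33.0% for JunD. A score limit of 200 gave 14.9% for LXRB at 48 h and 15.1% for JunD, and an equal number of peaks per library gave 443 sites, 13.3% for LXRB at 48 h and 40.0% for PPARG at 2 h. With equal numbers in the receptor libraries only, at the 906 sites, these shares were 8.17% and 30.5%. Overlap of at least 50% of the shorter interval, no DMSO peak within 1000 bp and a window of 500 bp moved no share by more than the spread of replicates and no test across its threshold.

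When single libraries were left out, the number of sites ran from 970 to 2290. Shares ran from 27.03% to 71.4% for 24 h GW3965 H3K27ac, 57.8% to 82.8% for 24 h rosiglitazone, 7.96% to 19.4% and 18.0% to 29.8% for LXRB at 2 and 48 h, 44.3% to 66.8% and 36.2% to 59.5% for LXRA, 37.6% to 59.1% and 26.99% to 52.8% for PPARG, and 19.0% to 30.5% for JunD. A share of a target's single replicate is higher by construction, and the cause of the other moves was not tested. The RNAP2 difference between drug and DMSO libraries ran from -2.40 to 3.73 points (exact permutation p from 0.750 to 1), and was -5.19 points for GW3965 alone, an alternative chosen after seeing the data. The RNAP2 difference from sites gained with GW3965 only ran from 23.0 to 32.0 points, and that from sites gained with rosiglitazone only from 0.322 to 17.1 points. With a replicate block the drug difference was 1.74 points (exact permutation p = 0.920). The labels do not say that a replicate number marks a shared culture or batch, and the numbers were not taken to pair libraries. Rep1 minus Rep2 was 18.7 points at 24 h of GW3965 and -25.8 points at 48 h of rosiglitazone. The planned tests of RNA at genes near the sites and their alternatives were not run, since they need gene positions in hg19.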
